A study of Mus musculus with 60 samples.

Results

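The genes described here supply the brain with creatine and use it. They are Slc6a8, Ckb, Ckmt1, Gatm and Gamt, 5 of the 18088 genes in the deposited table. They were selected on the measured rise of Slc6a8 from vehicle to lithium in these same libraries, and they are followed here across genotype, drug and sex. Because lithium minus vehicle chose them, every value of that contrast is given for them as a description, with no test. Polyadenylated RNA from prefrontal cortex was sequenced in 60 C57BL/6J mice of both sexes, in 12 groups of 5 libraries. The mice were wild type (WT) or heterozygous for the N2373K allele of Chd8, a chromatin remodeler gene linked to autism (Chd8+/N2373K, called Het). Nursing mothers passed vehicle, fluoxetine (a serotonin reuptake inhibitor) or lithium (a mood stabilizer) to the pups through milk over 3 weeks, from postnatal day 3 to 24. Tissue was taken on postnatal day 25. All groups share the strain, the age and the route of treatment, and the dose is not given in the sources used here. Litters are not given either, so pups of 1 treatment may share a mother, and the p-values then describe no more than the spread among these libraries.

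Creatine carries high-energy phosphate from mitochondria to places where ATP is spent. Gatm (arginine:glycine amidinotransferase) and Gamt (guanidinoacetate N-methyltransferase) make creatine in successive steps. Slc6a8 is the plasma membrane transporter that takes creatine into cells, and its loss in humans causes X-linked creatine transporter deficiency with intellectual disability. Ckb is the cytosolic creatine kinase of the brain, and Ckmt1 is the ubiquitous mitochondrial creatine kinase, which sits between the mitochondrial membranes. In the brain, synthesis enzymes are best known from glia and the transporter from neurons, oligodendrocytes and the endothelium.

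The libraries held from 24052509 to 31647416 reads, with a median of 28317232. Chd8 itself stood at 2951 to 3285 normalised reads in the 30 WT libraries and at 2421 to 3072 in the 30 Het libraries, where 1 Het library lay above the lowest WT library. Levels of sex-linked genes matched the labelled sex in 60 of 60 libraries. The summed level of 10 cortical excitatory neuron markers ran from 123185 to 216402, which fits the labelled tissue. Markers of neighbouring tissue varied between libraries. The summed level of 10 olfactory bulb markers ran from 869 to 25177, with Tbx21, Eomes and Igfbpl1 at 0 in at least 1 library. The summed level of 7 choroid plexus markers ran from 104 to 15696, with Ttr and Otx2 at 0 in at least 1 library. As an alternative, 16 libraries with high olfactory bulb scores were left out, which left at least 2 libraries in each group. In bulk tissue, fewer cells of a type and less RNA per cell cannot be told apart.

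All 5 genes passed the filter on low values, as did 17807 of the 18088 genes. On GRCm38 with the GENCODE M21 annotation, Slc6a8 (ENSMUSG00000019558) lies on the plus strand at chrX:73673150-73682502. Ckb (ENSMUSG00000001270) lies on the minus strand at chr12:111669361-111672338, and Ckmt1 (ENSMUSG00000000308) on the plus strand at chr2:121357714-121363737. Gatm (ENSMUSG00000027199) lies on the minus strand at chr2:122594467-122611303, so that it shares chromosome 2 with Ckmt1. Gamt (ENSMUSG00000020150) lies on the minus strand at chr10:80258151-80261012. Each of the 5 is protein coding. Ckmt1 shares 10 exon bases with the opposite-strand gene Strc, and the library kit keeps strand, per the labels. The pseudogenes Ckb-ps1 and Ckb-ps2 are not among the genes of the table, and their longest runs in common with the Ckb transcript were 51 and 53 bases. The coding sequences of the 2 kinases matched at 68.8% of 1135 aligned bases. Their longest shared run, shown because it is the longest stretch at which these coding sequences are identical, was 15 bases long and began at base 808 of the Ckb coding sequence.
Ckb and Ckmt1 shared run: gagttcatgtggaat

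Promoters were read from the RefSeq table of GRCm38.p6, each from 250 bases before to 50 bases after the start of transcription. The table held 5 entries for 4 of the genes, 2 of them for Ckmt1, and Slc6a8 was not matched. The promoters of both kinases and of both synthesis genes are shown because the kinases were the most abundant members per length and the synthesis genes varied together between libraries. The Ckb promoter is chr12:111672289-111672588 on the minus strand, the first Ckmt1 promoter chr2:121357526-121357825 on the plus strand, the Gatm promoter chr2:122611228-122611527 on the minus strand and the Gamt promoter chr10:80260963-80261262 on the minus strand. Capitals mark matches on either strand. The letters searched were TATAAA for the box of that name, bound by the general transcription machinery, and CCAAT for the box of that name, bound by factors such as NF-Y. The GC box bound by Sp factors was searched as GGGCGG, and the site of estrogen-related receptors, which regulate energy metabolism, was searched as AAGGTCA. Overlapping matches were counted separately.
Ckb: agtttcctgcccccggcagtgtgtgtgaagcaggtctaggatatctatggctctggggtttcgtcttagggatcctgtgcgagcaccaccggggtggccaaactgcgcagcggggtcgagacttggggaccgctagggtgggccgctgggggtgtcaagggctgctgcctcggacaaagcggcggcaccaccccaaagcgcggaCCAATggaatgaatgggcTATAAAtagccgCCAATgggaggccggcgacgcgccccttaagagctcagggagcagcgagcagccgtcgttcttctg
Ckmt1: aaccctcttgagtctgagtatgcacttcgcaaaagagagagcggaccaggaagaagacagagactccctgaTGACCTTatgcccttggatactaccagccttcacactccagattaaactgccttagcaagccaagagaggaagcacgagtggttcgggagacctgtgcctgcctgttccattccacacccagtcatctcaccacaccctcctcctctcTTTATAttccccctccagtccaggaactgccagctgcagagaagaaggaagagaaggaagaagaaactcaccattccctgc
Gatm: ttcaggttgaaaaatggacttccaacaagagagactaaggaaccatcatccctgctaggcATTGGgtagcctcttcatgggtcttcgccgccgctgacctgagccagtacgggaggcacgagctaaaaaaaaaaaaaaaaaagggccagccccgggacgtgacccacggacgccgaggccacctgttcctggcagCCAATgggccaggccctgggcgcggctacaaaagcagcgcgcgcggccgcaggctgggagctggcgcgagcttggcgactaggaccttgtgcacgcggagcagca
Gamt: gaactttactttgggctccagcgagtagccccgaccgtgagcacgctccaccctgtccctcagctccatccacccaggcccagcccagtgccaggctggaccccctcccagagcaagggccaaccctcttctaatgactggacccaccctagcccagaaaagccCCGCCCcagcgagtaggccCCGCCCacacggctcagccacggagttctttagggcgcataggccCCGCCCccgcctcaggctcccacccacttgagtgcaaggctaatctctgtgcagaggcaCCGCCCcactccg
The Ckb promoter held 1 TATA box and 2 CCAAT boxes. The first Ckmt1 promoter held 1 TATA box and 1 site of estrogen-related receptors. The second, chr2:121358360-121358659 on the plus strand and not printed, held neither and 1 CCAAT box. The Gatm promoter held 2 CCAAT boxes and the Gamt promoter 4 GC boxes. Of all 32851 promoters of the same length in the table, 13.6% held a TATA box, 37.4% a CCAAT box, 35.7% a GC box and 4.72% the receptor site. GC content was 63.0% for Ckb, 52.0% and 58.3% for the 2 Ckmt1 promoters, 60.7% for Gatm and 66.0% for Gamt, beside a median of 52.7% over all promoters. These are matches of letters and nothing more.

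Per kilobase of exon, the level of Ckb was far above the rest. It averaged 7844.5 ± 578.6 normalised reads per kilobase (SD, n = 60), Ckmt1 1786.3 ± 202.7, Slc6a8 531.8 ± 47.6, Gatm 495.5 ± 70.0 and Gamt 122.8 ± 24.9. The ranges of Slc6a8 (460.5 to 654.8) and Gatm (325.3 to 630.5) per kilobase overlapped, and the other neighbours in this order were apart in every library. The ratio of Ckb to Ckmt1 per kilobase was 4.44 ± 0.59 and ran from 3.47 to 5.68. The ratio of Gatm, which makes the precursor guanidinoacetate, to Gamt, which methylates it, was 4.15 ± 0.83 per kilobase and ran from 2.79 to 7.51. The length used merges the exons of all transcripts of a gene. For Ckb it was 2895 bases, beside 1472 bases in the transcript that was compared with the pseudogenes. The levels per kilobase and the ratios depend on this choice.

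Slc6a8 was the steadiest of the 5 within groups. Its residual spread was 0.062 on the log2 scale, at percentile 2.5 of all genes tested. The spread was 0.094 for Ckb (percentile 18.4), 0.174 for Ckmt1 (percentile 51.3), 0.197 for Gatm (percentile 56.6) and 0.3 for Gamt (percentile 70.7). The highest library stood 1.42 times above the lowest for Slc6a8 and 2.4 times for Gamt, each over all 60 libraries.

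Slc6a8, the creatine transporter, was higher in the lithium libraries than in nearly all others. Normalised reads in replicates 1 to 5 of WT males were 2572, 2756, 2723, 2630 and 2772 under vehicle, and 3028, 3075, 3111, 3032 and 3166 under lithium. In WT females they were 2761, 2743, 2724, 2505 and 2825 under vehicle, and 3073, 3228, 2716, 2942 and 2931 under lithium. All lithium males lay above all vehicle males, and in females lithium replicate 3 fell inside the vehicle range. Het males had values of 2544, 2656, 2500, 2561 and 2696 under vehicle, and 3070, 3211, 2989, 3105 and 3228 under lithium. Het females had values of 2481, 2595, 2767, 2531 and 2670 under vehicle, and 3411, 2957, 2953, 3059 and 3168 under lithium. Groups did not overlap in either sex of the Het mice. Taken over all groups, 19 of the 20 lithium libraries lay above the highest of the 40 other libraries, at 2825, and the exception was WT lithium female replicate 3 at 2716.

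**Figure D1:**
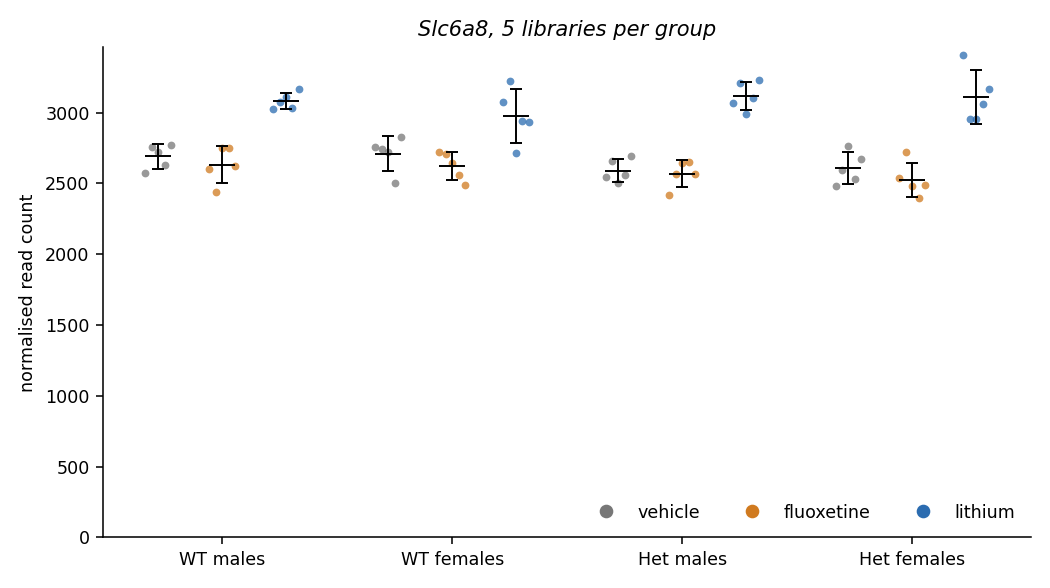
Normalised read count of Slc6a8 (y axis, from 0) in each library, by genotype and sex (x axis) and treatment (colour). Points are single libraries and bars are the mean ± SD of 5. Lithium libraries ran from 2716 to 3411 and all others from 2399 to 2825.

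The difference in Slc6a8 was modest in size. On the log2(value + 1) scale, lithium minus vehicle was 0.20 in males and 0.13 in females of the WT genotype, and 0.27 in males and 0.25 in females of the Het genotype, each with an SE of 0.04 (n = 5 against 5). Averaged over both sexes it was 0.17 ± 0.03 in WT mice, a rise of 12.1%, and 0.26 ± 0.03 in Het mice, a rise of 19.8%. In each of the 4 strata, 5 of 5 lithium libraries lay above the vehicle mean. The Het difference was 0.09 above the WT difference (SE 0.04), which was not tested. The share of all genes with every lithium library above every vehicle library was 1.86% in WT males, 2.45% in Het males and 1.27% in Het females, the 3 strata where Slc6a8 did not overlap. As lithium minus vehicle chose the gene, these values are a description and nothing is read from them.

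Of 5 erythrocyte markers, 3 were called higher with lithium in WT mice (median 0.69 on the log2 scale), beside 1.9% of all genes. In Het mice 4 of these markers were called higher (median 0.77), beside 5.3% of all genes. Their summed level ran from 3252 to 8797 in the vehicle groups and from 3525 to 15248 in the lithium groups, with no marker of the list at 0. With the erythrocyte score as a covariate, an alternative added after seeing the data, the lithium difference of Slc6a8 was 0.18 in WT and 0.28 in Het mice. None of the 8 leptomeningeal markers was called with lithium in Het mice (median -0.31), where 944 of 17807 genes were called higher and 683 lower. The summed level of these markers ran from 4209 to 9273 over all groups, with no marker at 0. With the leptomeningeal score as a covariate, also added after seeing the data, the difference was 0.16 and 0.23. Without the 16 libraries of highest olfactory bulb score it was 0.16 and 0.27.

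Fluoxetine left no called difference in Slc6a8. The comparison uses the same vehicle libraries as the lithium comparison. Values in the fluoxetine libraries ran from 2399 to 2752, and 17 of 20 lay inside the range of the 20 vehicle libraries, 2481 to 2825. Fluoxetine minus vehicle was -0.04 ± 0.03 in WT mice (95% interval -0.10 to 0.02) and -0.03 ± 0.03 in Het mice (95% interval -0.09 to 0.03), averaged over both sexes. Limma's adjusted p was 0.438 and 0.466. The intervals leave room for a fall of up to 0.10 and for a rise of up to 0.03.

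Ordered by mean level of Slc6a8, the 4 lithium groups stood first and most neighbours were close. Het lithium males were highest at 3120.8 ± 99.6 (SD, n = 5), followed by Het lithium females at 3109.8 ± 190.2, WT lithium males at 3082.6 ± 57.9 and WT lithium females at 2978.2 ± 189.3. WT vehicle females were next at 2711.6 ± 121.5, and the lowest group was Het fluoxetine females at 2525.8 ± 119.2. Of the 11 neighbouring pairs in this order, 10 lay closer together than the mean of their SDs. The pair that did not was WT lithium females and WT vehicle females, 1.72 times that mean apart, and this gap is the contrast on which the genes were selected.

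Ckb, the cytosolic kinase, was higher with fluoxetine in Het mice. Normalised reads in Het males were 22755, 21800, 22891, 20614 and 20117 under vehicle, and 23075, 20839, 25828, 26975 and 22808 under fluoxetine. In Het females they were 20964, 22752, 22029, 23676 and 23357 under vehicle, and 24893, 27454, 23582, 22651 and 22932 under fluoxetine. Fluoxetine libraries reached higher in both sexes, and the groups overlapped in both. Averaged over both sexes Ckb rose by 0.12 ± 0.04 on the log2 scale (8.9%, limma adjusted p = 0.0212), and 4 of 5 male and 5 of 5 female fluoxetine libraries lay above the vehicle mean. It was the only one of the 5 genes called in that comparison, where 32.9% of all genes tested were called. In single sexes it was not called, at 0.14 ± 0.06 in males (adjusted p = 0.0833) and 0.11 ± 0.06 in females (adjusted p = 0.233).

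That call of Ckb was narrow. It was lost without Het fluoxetine male replicate 3 (0.11, adjusted p = 0.0534), without male replicate 4 (0.10, adjusted p = 0.0636) and without female replicate 2 (0.10, adjusted p = 0.0634). It was also lost with quantile normalization, at 0.06 (adjusted p = 0.374), and after rescaling to the same total, at 0.09 (adjusted p = 0.123). Leptomeningeal markers moved in the same comparison, with 7 of 8 called lower (median -0.45), beside 16% of all genes. The summed level of these markers ran from 4462 to 9007 in the Het fluoxetine groups and from 4769 to 9273 in the Het vehicle groups. With their score as a covariate the difference of Ckb was 0.09 (adjusted p = 0.228).

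In WT mice Ckb with fluoxetine was 0.03 ± 0.04 (95% interval -0.06 to 0.11, limma adjusted p = 0.744), where 8.2% of all genes were called and none of the 5. At an unadjusted p under 0.05 the count was 1 (Gamt), and edgeR and DESeq2 each called 0. The fluoxetine effect in Het minus that in WT mice was 0.10 ± 0.06 for Ckb (95% interval -0.02 to 0.22, adjusted p = 0.353), so a difference between the genotypes was not shown. In that interaction 1.7% of all genes and 0 of the 5 were called by limma, with 0 of 5 at an unadjusted p under 0.05 and 0 of 5 by edgeR and by DESeq2. Lithium libraries stood at 21198 to 26326 in Het and 21288 to 23893 in WT mice, and lithium minus vehicle was 0.11 ± 0.04 and 0.08 ± 0.04. Interneuron marker scores are mean log2 values, with each gene centred over all libraries. In WT females they ran from 0.01 to 0.15 under lithium and from -0.17 to -0.08 under vehicle. In WT males these ranges were 0.03 to 0.13 and -0.11 to 0. Het females had -0.17 to 0.33 and -0.15 to 0.02, and Het males 0.02 to 0.15 and -0.17 to 0.02. The part of these markers in the lithium values of Ckb was not tested.

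Under fluoxetine, Ckb was higher in Het than in WT mice. The comparison uses the same Het fluoxetine libraries as fluoxetine minus vehicle in Het mice, so the calls of Ckb in both are not independent. Values in WT fluoxetine males were 20021, 19186, 22608, 21791 and 24910, and in WT fluoxetine females 21521, 22638, 20740, 22468 and 23987. They overlapped with the Het fluoxetine values given above in both sexes. Averaged over both sexes, Het minus WT was 0.13 ± 0.04 (9.6%, limma adjusted p = 0.0448), the only call among the 5 genes in a comparison where 7.33% of all genes were called. The call was lost when 1 library was left out in 13 of 20 cases, with values from 0.11 to 0.14. These were Het fluoxetine male replicates 3, 4 and 5, Het fluoxetine female replicates 1, 2 and 3, WT fluoxetine male replicates 1, 2, 3 and 4, and WT fluoxetine female replicates 1, 2 and 3. Leptomeningeal markers differed as well, with 4 of 8 called lower in Het (median -0.48), beside 691 of 17807 genes. With the score of these markers as a covariate Ckb was at 0.10 (adjusted p = 0.39).

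Ckmt1, the mitochondrial kinase, was not called in any of the 19 comparisons tested. Group means ran from 4200.8 ± 495.0 in Het vehicle females to 4791.5 ± 683.5 in WT lithium females (SD, n = 5). Fluoxetine minus vehicle was 0.05 ± 0.08 in WT mice (95% interval -0.10 to 0.20) and 0.10 ± 0.08 in Het mice (95% interval -0.05 to 0.26), with limma adjusted p = 0.715 and 0.292. Lithium minus vehicle was 0.10 ± 0.08 in WT and 0.12 ± 0.08 in Het mice. Both sets of intervals are wider than those of Ckb, so that a change of the size seen in Ckb could not be told from none.

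**Figure D2:**
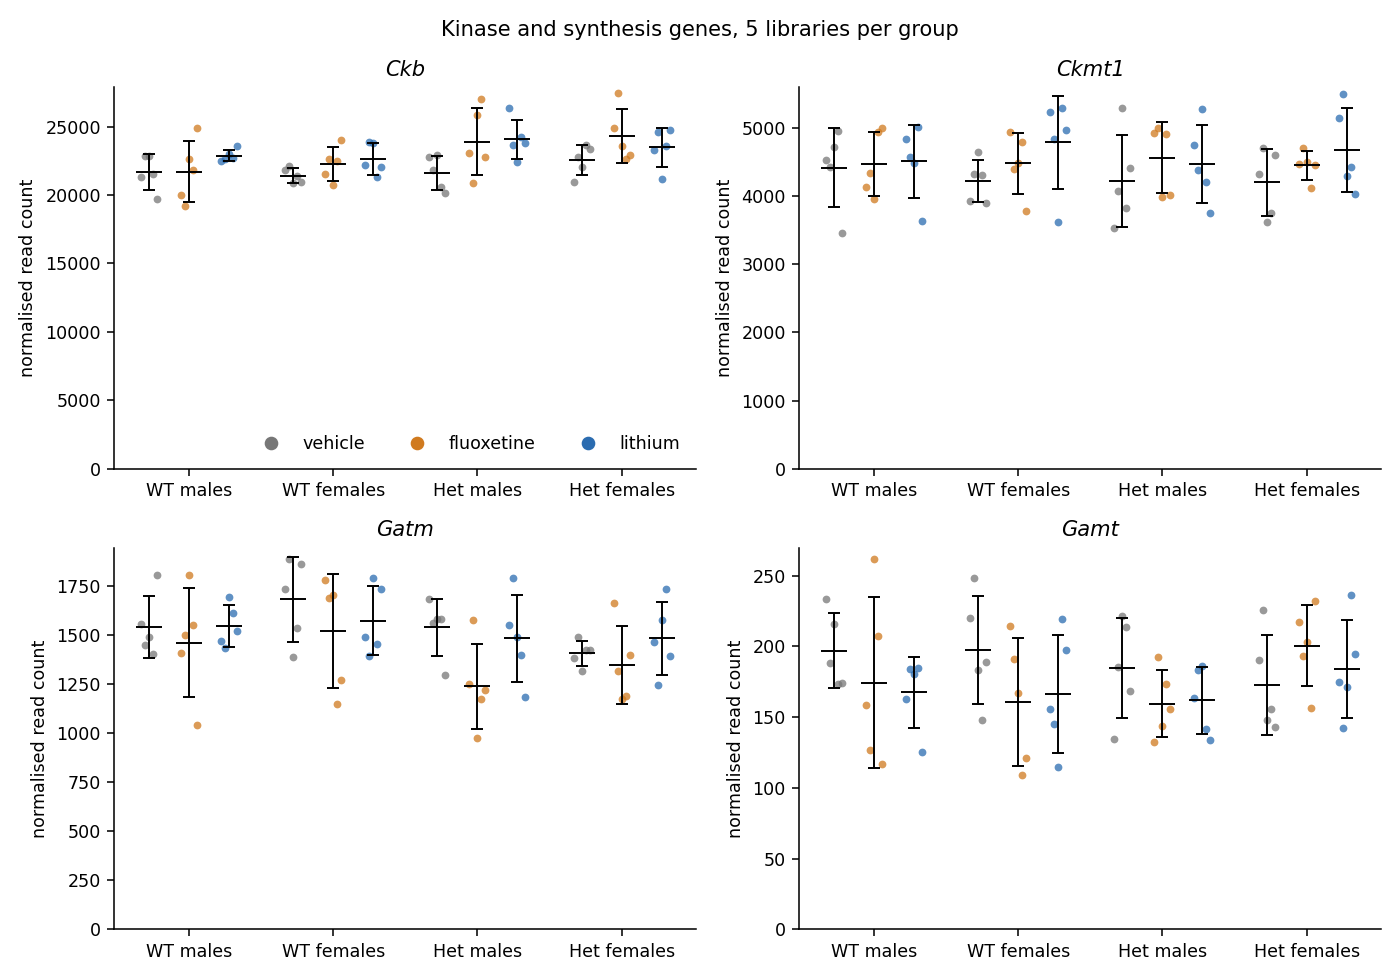
Normalised read counts (y axes, from 0) of Ckb, Ckmt1, Gatm and Gamt in each library by genotype and sex (x axis) and treatment (colour). Points are libraries and bars the mean ± SD of 5. Ckb reached its highest value, 27454, in a Het fluoxetine female, and Gatm its lowest, 976, in a Het fluoxetine male.

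Gatm, which carries out the first step of creatine synthesis, was lower with fluoxetine in Het males. Normalised reads were 1685, 1562, 1582, 1582 and 1298 under vehicle, and 1252, 1576, 976, 1173 and 1223 under fluoxetine. Vehicle replicate 5 lay among the fluoxetine values and fluoxetine replicate 2 among the vehicle values. Gatm fell by 0.33 on the log2 scale (SE 0.12, limma adjusted p = 0.0437), with 4 of 5 libraries below the vehicle mean. It was the only one of the 5 genes called in Het males, where 22.7% of all genes were called.

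That call of Gatm lay near the threshold. It was lost when 1 library was left out in 8 of 10 cases, all except Het fluoxetine male replicate 2 and Het vehicle male replicate 5, with values from -0.33 to -0.24. Among these it was -0.29 or lower in 7 of 8. The smallest difference was without Het fluoxetine male replicate 3 (adjusted p = 0.189). Without the 16 libraries of highest olfactory bulb score it was -0.35 (adjusted p = 0.285), and with that score as a covariate it was -0.28 (adjusted p = 0.0948). Markers of oligodendrocyte precursors moved in the same males, with 2 of 5 called lower and 1 higher (median -0.32). Among all genes, 1903 of 17807 were called lower and 2134 higher in this comparison. The summed level of the precursor markers ran from 4911 to 6114 under fluoxetine and from 6461 to 7330 under vehicle, without overlap and with no marker at 0. Their part in the difference of Gatm was not tested.

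In the other strata Gatm with fluoxetine was not called by limma. Averaged over both sexes of the Het mice it was -0.20 ± 0.09 (95% interval -0.37 to -0.03, limma adjusted p = 0.0664), also not called. It was -0.07 ± 0.12 in Het females (adjusted p = 0.734), where 15.1% of all genes and 0 of the 5 were called, with 0 of 5 at an unadjusted p under 0.05 and 0 of 5 by edgeR and by DESeq2. In WT mice it was -0.09 ± 0.12 in males and -0.16 ± 0.12 in females (adjusted p = 0.832 and 0.53). In these sexes 1.34% and 2.5% of all genes were called and 0 of the 5, with the same 0 at an unadjusted p under 0.05 and by the other tools. The fluoxetine effect in males minus that in females was -0.09 ± 0.12 for Gatm (95% interval -0.34 to 0.15, adjusted p = 0.991). Lithium minus vehicle was -0.04 ± 0.09 in WT and 0.00 ± 0.09 in Het mice.

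Gamt, which completes the synthesis, was the least abundant of the 5 and the most variable. Its 20 vehicle libraries ran from 134 to 248 normalised reads, its fluoxetine libraries from 109 to 262 and its lithium libraries from 115 to 236. The 3 ranges overlapped almost wholly. With fluoxetine it was -0.28 ± 0.13 in WT mice (limma adjusted p = 0.185) and 0.01 ± 0.13 in Het mice (adjusted p = 0.954). The genotypes differed in this effect by 0.29 ± 0.18 (95% interval -0.08 to 0.66, adjusted p = 0.363), which was not called. Lithium minus vehicle was -0.25 ± 0.13 in WT and -0.04 ± 0.13 in Het mice. In Het females, 8 of 12 oligodendrocyte and myelin markers were called higher with fluoxetine (median 1.10), beside 1260 of the 17807 genes tested. The fluoxetine difference of Gamt in these females was 0.22 ± 0.18 (limma adjusted p = 0.436). With the myelin score as a covariate it was -0.17 (adjusted p = 0.484), so that it was called in neither fit. The part of myelin content in this difference was not tested.

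The Chd8 allele by itself moved none of the 5 genes past the threshold. Under vehicle, Het minus WT averaged over both sexes was -0.05 ± 0.03 for Slc6a8 (95% interval -0.11 to 0.00), 0.04 ± 0.04 for Ckb, -0.04 ± 0.08 for Ckmt1, -0.12 ± 0.09 for Gatm and -0.15 ± 0.13 for Gamt. The smallest limma adjusted p was 0.66, and 0 of 5 were called in a comparison where 0.0562% of all genes were called. At an unadjusted p under 0.05 the count was also 0, as it was by edgeR and by DESeq2. Under lithium Het minus WT was 0.04 ± 0.03 for Slc6a8 (95% interval -0.02 to 0.10), and again 0 of 5 were called by limma, by edgeR and by DESeq2, 0 had an unadjusted p under 0.05, and 0.0393% of all genes were called. Under fluoxetine it was -0.05 ± 0.03 for Slc6a8 (adjusted p = 0.341) and -0.20 ± 0.09 for Gatm (adjusted p = 0.138).

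**Figure D3:**
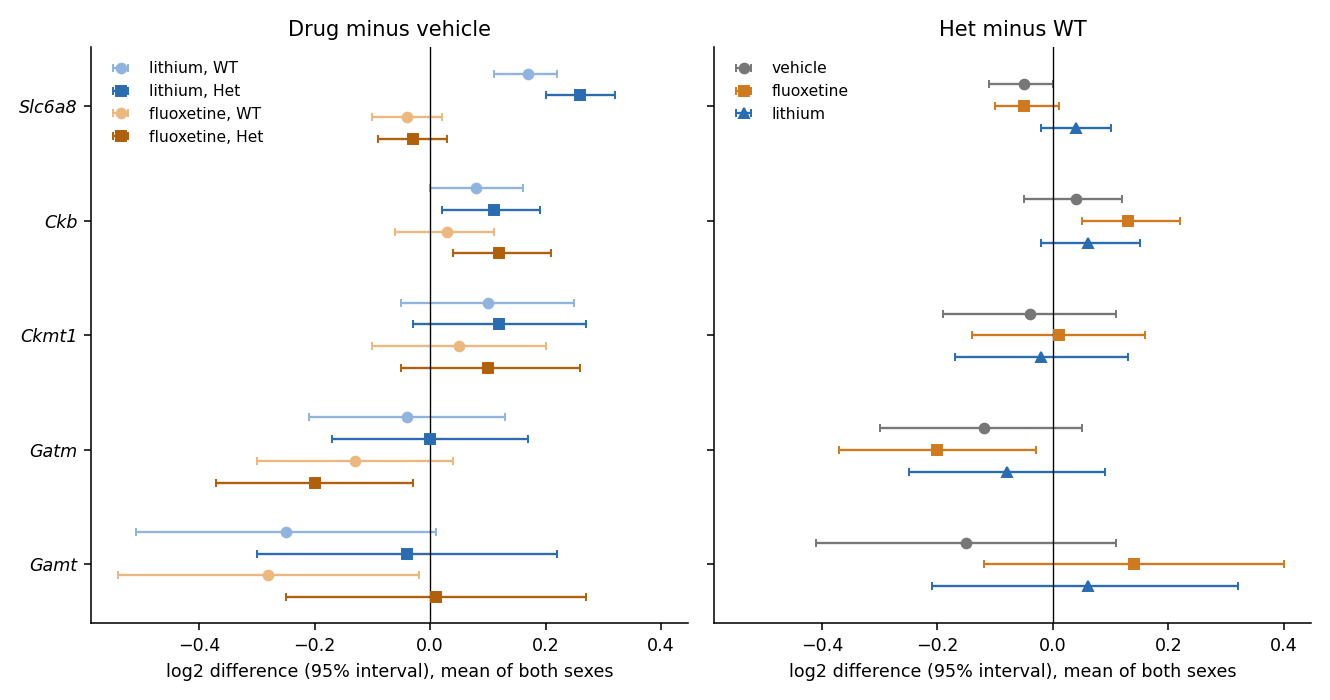
Log2 differences with 95% intervals (x axis), averaged over both sexes, for the 5 genes (y axis). The left panel shows each drug minus vehicle in WT and Het mice, where the lithium values of Slc6a8 stand at 0.17 and 0.26. Lithium minus vehicle chose the genes, so its intervals describe spread and are no test. The right panel shows Het minus WT under each treatment.

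Sex made no called difference, including for the X-linked Slc6a8. Slc6a8 averaged 2781.6 ± 248.7 normalised reads in 30 males and 2760.0 ± 251.5 in 30 females (SD over libraries of all treatments). Male minus female over the 6 strata of genotype and treatment was 0.01 ± 0.02 for Slc6a8 (95% interval -0.02 to 0.05, limma adjusted p = 1). For the other genes it ran from -0.05 ± 0.08 for Gamt to -0.01 ± 0.02 for Ckb. No member was called by limma, edgeR or DESeq2, 0 had an unadjusted p under 0.05, and 0.14% of all genes were called.

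Between libraries of the same group, the 2 synthesis genes rose and fell together. Over deviations from the group means in 60 libraries, Gatm and Gamt had Pearson's r = 0.56 and Spearman's rho = 0.53 (within-group permutation, adjusted p = 0.0011 and 0.0022 over 10 pairs of genes). Without the 2 libraries farthest from the median of Gatm, r was 0.48. None of the other 9 pairs passed, and their r ran from -0.26 for Ckb and Gatm to 0.31 for Ckmt1 and Gamt (adjusted p = 0.258 and 0.158). Ckb and Ckmt1, the 2 kinases, had r = 0.02 (adjusted p = 0.945).

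Several of the genes also followed cell type markers. Scores of 13 marker lists were compared with each gene in the same way, 65 relations in all, of which 15 passed by Pearson's r. Gatm followed markers of oligodendrocyte precursors (r = 0.76, rho = 0.77, r = 0.80 without 2 libraries) and ran against markers of excitatory neurons (r = -0.60, rho = -0.64, r = -0.65 without 2 libraries). Gamt followed myelin markers (r = 0.73, rho = 0.75, r = 0.73 without 2 libraries) and markers of oligodendrocyte precursors (r = 0.61, rho = 0.61, r = 0.60 without 2 libraries). Each of these had an adjusted permutation p of 0.00013 for r and 0.000162 for rho, and their unadjusted p of 1e-05 is the smallest that 100000 permutations can give. The sign was the same in 12 of 12 groups for all 4. Gatm passed as well with myelin (r = 0.50, rho = 0.51, permutation adjusted p = 0.00234 and 0.00217, r = 0.51 without 2 libraries), astrocyte (r = 0.52, rho = 0.49, permutation adjusted p = 0.00137 and 0.00195, r = 0.52 without 2 libraries) and microglia markers (r = 0.53, rho = 0.50, permutation adjusted p = 0.00111 and 0.00121, r = 0.53 without 2 libraries), so that both synthesis genes followed oligodendrocyte precursor and myelin markers. Gatm passed by r also with erythrocyte (r = 0.44) and mural cell markers (r = 0.35), and Gamt with striatal markers (r = 0.59, rho = 0.55), with permutation adjusted p = 0.0208, 0.0495 and 0.00013. The relation with mural cell markers lost its call in 38 of 60 cases when 1 library was left out.

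Ckmt1 followed markers of excitatory neurons (r = 0.46, rho = 0.44, permutation adjusted p = 0.00569 and 0.0065, r = 0.40 without 2 libraries) and ran against astrocyte markers (r = -0.52, rho = -0.56, permutation adjusted p = 0.000758 and 0.000217, r = -0.53 without 2 libraries), each with the opposite sign to Gatm. It also ran against endothelial markers (r = -0.47, rho = -0.48, permutation adjusted p = 0.00366 and 0.00292, r = -0.42 without 2 libraries). Ckb followed interneuron markers (r = 0.50, rho = 0.51, permutation adjusted p = 0.00137 and 0.00247, r = 0.52 without 2 libraries). Slc6a8 ran against leptomeningeal markers (r = -0.43, rho = -0.37, permutation adjusted p = 0.0208 and 0.043, r = -0.42 without 2 libraries), a relation that lost its call with quantile normalization (r = -0.24), without the 16 libraries of highest olfactory bulb score (r = -0.44), without Het fluoxetine male replicate 1 (r = -0.38) and without WT lithium female replicate 3 (r = -0.35). Slc6a8 and erythrocyte markers, which were higher with lithium, had r = -0.18 within groups (rho = -0.14, permutation adjusted p = 0.335 and 0.466, r = -0.12 without 2 libraries). All points share library preparation and depth.

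**Figure D4:**
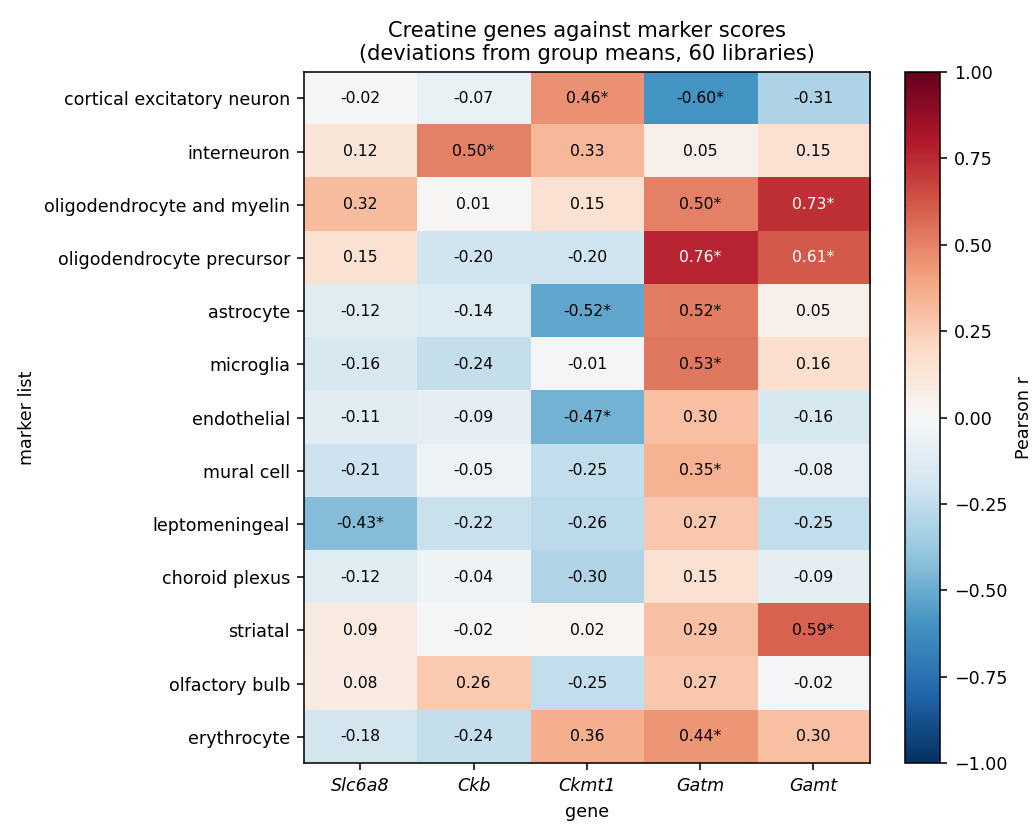
Pearson's r (colour and printed value) between the 5 genes (x axis) and scores of 13 marker lists (y axis), over deviations from group means in 60 libraries. An asterisk marks an adjusted permutation p under 0.05 over 65 relations, and the highest value is 0.76 for Gatm and oligodendrocyte precursor markers.

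The genes most like each member, by Pearson's r of the same deviations among 12727 genes with a mean of at least 50, were as follows, up to 5 for each. For Gatm they were Reep3 (r = 0.858), Ddah1, Scd2, Idh1 and Vamp3 (r = 0.836). For Gamt they were Pdlim2 (r = 0.812), Josd2, Pacs2 and Mag (r = 0.786), a myelin protein gene that is also on the myelin list. For Ckmt1 they were Sept8 (r = 0.849), Sulf2, Mmp17, Atp6v0a1 and Klc2 (r = 0.810). For Ckb they were Selenom (r = 0.718), Ldhb, the lactate dehydrogenase B subunit, Podxl2, Dpf1 and Dexi (r = 0.659). For Slc6a8 the values were lower, with Plpbp at r = 0.574, then Zfp574, Ier5l, Gxylt1 and Mex3c at r = 0.526. These are descriptions over 60 libraries, with no test.

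Around the creatine kinases, genes that carry or pass on high-energy phosphate moved with fluoxetine in Het mice. This list of 14 held adenylate kinases, nucleoside diphosphate kinases, ADP/ATP carriers of the inner mitochondrial membrane, voltage-dependent anion channels of the outer one and catalytic subunits of AMP-activated kinase. Averaged over both sexes, 9 were called higher and 2 lower (median 0.14, beside 0.01 over all genes), in a comparison where 16.9% of all genes were called higher and 16% lower. Vdac2, an outer membrane channel, rose from 3587.3 ± 197.1 to 4011.5 ± 184.6 normalised reads in males and from 3366.7 ± 263.0 to 3949.6 ± 251.0 in females (SD, n = 5), by 0.20 ± 0.03 (limma adjusted p = 2.05e-06). Ak3 rose by 0.19 ± 0.03 (adjusted p = 2.18e-05), and it encodes a mitochondrial adenylate kinase. In WT mice 0 of the 14 were called with fluoxetine by limma (median 0.06), where 8.2% of all genes were called. The difference between the genotypes was called for none of the 14 and for 1.7% of all genes. Vdac2 was closest at 0.15 ± 0.04 (adjusted p = 0.0543), so a response particular to Het mice was not shown for this list. Leptomeningeal markers moved in the same comparison, as given for Ckb, and with their score as a covariate 6 of the 14 were called higher, as they were without the 16 libraries of highest olfactory bulb score.

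With lithium, 5 of these 14 were called higher in Het mice and none lower (median 0.07, beside 0 over all genes), where 5.3% of all genes were called higher. They were Vdac2 (0.14 ± 0.03), Vdac3 (0.14 ± 0.04), Slc25a4 (0.14 ± 0.04), Slc25a5 (0.16 ± 0.04) and Nme1 (0.23 ± 0.06), with limma adjusted p from 0.00325 to 0.0155. Without the 16 libraries of highest olfactory bulb score the count was 2. In WT mice 1 was called, Slc25a5 (0.13 ± 0.04, adjusted p = 0.0424), where 1.9% of all genes were called higher. That WT count fell to 0 without any one of WT lithium female replicates 1, 2, 4 and 5, WT lithium male replicates 1, 3 and 4, WT vehicle female replicates 1, 2, 3 and 5 and WT vehicle male replicates 1, 2 and 5, and it rose to 2 without WT lithium male replicate 5. The lithium and fluoxetine comparisons share their vehicle libraries.

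**Figure D5:**
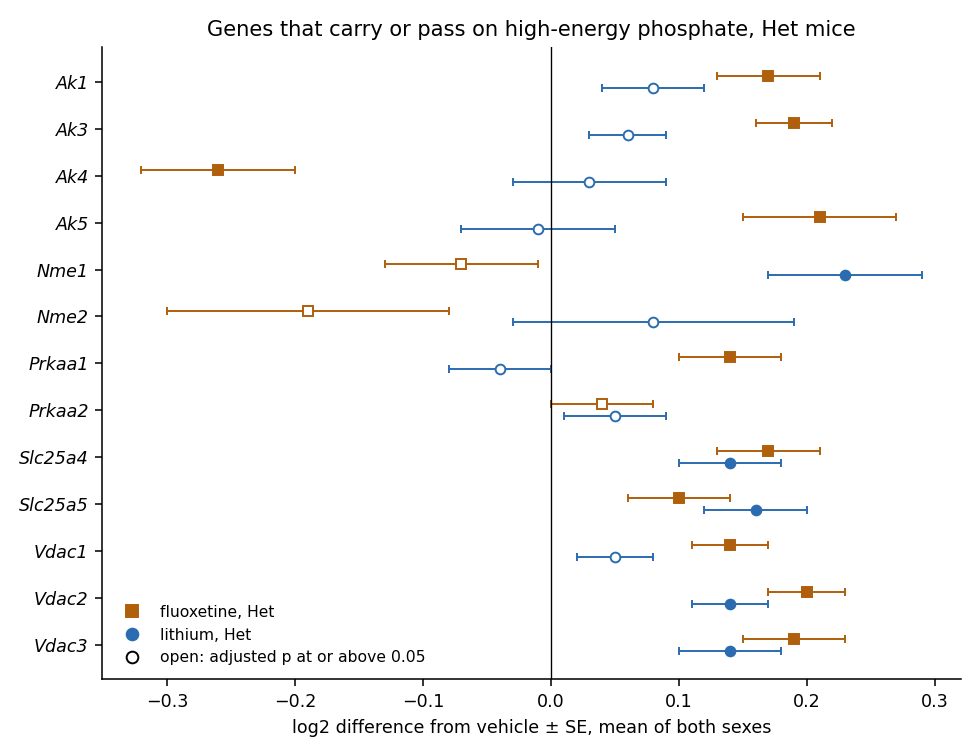
Log2 difference from vehicle ± SE in Het mice (x axis, mean of both sexes) for 13 of the 14 genes that carry or pass on high-energy phosphate (y axis). Squares are fluoxetine and circles lithium, and open symbols missed the threshold. With fluoxetine 9 of them were called higher.

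Genes that supply arginine and methyl groups for creatine synthesis were called in both directions with fluoxetine. Of 16 genes of arginine transport, the urea cycle segment and S-adenosylmethionine turnover, 5 were called higher and 3 lower in Het mice (median 0.05), where 16.9% of all genes were called higher and 16% lower. Slc7a1, a cationic amino acid transporter that takes up arginine, fell by 0.31 (SE 0.05, limma adjusted p = 3.19e-06) in Het mice, from 1822.0 ± 137.1 to 1515.7 ± 129.0 in males and from 1869.4 ± 136.1 to 1466.2 ± 120.4 in females (SD, n = 5). It also fell by 0.24 (SE 0.05, adjusted p = 0.00063) in WT mice, the only gene of the list called there, beside 8.2% of all genes. Mat2b, a regulatory subunit of methionine adenosyltransferase, rose by 0.35 ± 0.07 (adjusted p = 6.3e-05) and Ass1, argininosuccinate synthase, by 0.41 ± 0.10 (adjusted p = 0.00176) in Het mice. Without the 16 libraries of highest olfactory bulb score the counts in Het mice were 3 higher and 1 lower, and with the leptomeningeal score as a covariate they were 2 and 1.

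Under fluoxetine, 1 of the 16 genes, Ass1, was called between genotypes, in a comparison where 7.33% of all genes were called. It averaged 407.0 ± 83.1 normalised reads in Het and 284.0 ± 33.5 in WT females, and 373.0 ± 75.6 in Het and 270.4 ± 64.2 in WT males. Het minus WT was 0.49 ± 0.10 (limma adjusted p = 0.00288). With lithium in Het mice, averaged over both sexes, Slc7a3 was higher by 0.46 ± 0.10 (adjusted p = 0.00264). It encodes another cationic amino acid transporter. Oat, ornithine aminotransferase, fell by 0.13 (SE 0.04, adjusted p = 0.0181). Among all genes, 944 of 17807 were called higher and 683 lower in this comparison. In Het females Slc7a3 rose by 0.74 ± 0.14 (limma adjusted p = 0.00883), from 105 to 155.6 normalised reads under vehicle to 205.5 to 242 under lithium. In Het males these ranges, 101 to 210.7 and 144.5 to 206, overlapped, and 0 of the 16 genes were called.

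Of 12 measured relatives of Slc6a8 in the SLC6 transporter family, 1 was called higher and 1 lower with fluoxetine in Het mice, in the comparison where 32.9% of all genes were called. Slc6a15, a neutral amino acid transporter, rose by 0.33 ± 0.08 (limma adjusted p = 0.000682) and Slc6a6, the taurine transporter, fell by 0.14 (SE 0.05, adjusted p = 0.0131). With lithium Slc6a7, the proline transporter, was the one call in Het mice (0.15 ± 0.04, adjusted p = 0.0148), where 5.3% of all genes were called higher. Of 6 genes of osmolyte handling, which include Slc6a6, 2 were called lower with fluoxetine in Het mice, beside 16% of all genes. The other was Nfat5, a transcription factor that responds to osmotic stress (-0.18 ± 0.06, adjusted p = 0.00978). In WT mice Nfat5 alone was called (-0.23 ± 0.06, adjusted p = 0.0067), where 8.2% of all genes were called. With lithium 1 of the 6 osmolyte genes was called higher and 0 lower in Het mice, where 5.3% of all genes were called higher. In WT mice 0 of the 6 were called with lithium, beside 1.9% of all genes called higher. Slc16a12, a monocarboxylate carrier that moves creatine, was not called with fluoxetine (-0.12 ± 0.12 in Het mice, adjusted p = 0.464) or with lithium (-0.20 ± 0.12, adjusted p = 0.291). Ckm, Ckmt2, Slc6a2 and Slc6a4, which complete these lists, were not analysed here.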

How the data were processed

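The values analysed were the read counts that the authors deposited after division by size factors, a normalised signal per gene in 60 libraries. Per the submitters' processing notes, Salmon 0.11.2, DESeq2 1.19.11, R 3.6.0 and GRCm38 were used, with roles not stated. The annotation is not given in the sources used here. Low values fell on whole multiples of 1 read, so that 100% of values came out as whole reads at a tolerance of 0.001. The design allowed for raw counts or normalised values, and the route for normalised values was taken.

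Genes with at least 10 normalised reads in at least 5 libraries were kept (17807 of 18088). Log2(value + 1) was fitted with limma 3.58.1 (R 4.3.3), with a trended variance, 1 mean per group and 48 residual degrees of freedom. Tests were two-sided, with Benjamini-Hochberg adjustment over all genes tested and a threshold of 0.05. Fold changes are on the log2(value + 1) scale. A sex average is the mean of the male and female differences. Gene names came from GENCODE M21 for 18077 of the 18088 genes, and levels per kilobase use its exon length. On simulated data for fluoxetine in WT mice, averaged over both sexes, 54 of 100 genes changed 1.2-fold and 100 of 100 changed 1.5-fold were recovered, among 17435 genes. Recovery at the residual spread of each of the 5 genes, from 0.062 for Slc6a8 to 0.3 for Gamt, was not tested.

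Alternatives were edgeR 4.0.16 and DESeq2 1.42.0 on the recovered whole reads, other normalisations, pseudocounts and filters, a replicate block, a fit of only the groups compared, marker scores as covariates, and leaving out 1 library or 16 libraries. For fluoxetine in Het mice, averaged over both sexes, limma called 5853 genes, edgeR 5745 and DESeq2 5910. Correlations were taken over deviations from group means, with 100000 permutations within groups. The 5 genes were followed throughout, with up to 4 genes of the pathway lists per comparison with the smallest p among those called, other list genes where a count is small, and the 5 genes most alike in pattern. Some genes that these rules name are not reported here. Pathway genes beyond those 4 were named after their values were seen. The genes and lists were chosen with earlier results of these data known.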

Additional observations from a re-analysis of the deposited data

Results flagged for a closer look

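Of 60 groups of 5 libraries examined (5 genes in 12 groups), 1 had a library far from the others, where chance gives about 1 group in 20. In WT lithium females, Ckmt1 stood at 3615.3 normalised reads in replicate 3, with the other 4 libraries between 4842.0 and 5291.7. The gap was 0.732 of the whole range of the group, above the critical value of 0.71. The same library held the lowest Slc6a8 value of the lithium libraries, 2716.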

How the results depend on the processing

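Over 90 results on the 5 genes, 1373 of 1440 alternatives beside those that leave out 1 library kept the direction and the side of the threshold or, for lithium minus vehicle, which was not tested, moved by less than the residual SD. Most of these results were not called or not tested. Of 16 such alternatives each, Ckb in Het minus WT under fluoxetine lost its call in 10, Ckb with fluoxetine in Het mice in 5 and Gatm with fluoxetine in Het males in 4. The lithium difference of Slc6a8 ran from 0.15 to 0.18 in WT and from 0.23 to 0.28 in Het mice over 37 settings. These settings refit the libraries on which the genes were selected, so the ranges are a description and lend the rise no support. The count of the 5 genes called for Het minus WT under fluoxetine, 1, was 0 with quantile normalization, rescaling to the same total, TMM factors, the replicate block (Ckb, adjusted p = 0.0524), only the groups compared, without the 16 libraries of highest olfactory bulb score, and with the olfactory bulb, erythrocyte or leptomeningeal score as a covariate. For fluoxetine in Het males and in Het mice averaged over both sexes, also 1 each, it was 0 with only the groups compared, without the 16 libraries and with the leptomeningeal score. It was 2 in both with the erythrocyte score and 2 for the average with the myelin score. When 1 library was left out, these 3 counts ran from 0 to 2. Counts do not show which gene is called. In Het males Gatm lost its call also with the olfactory bulb score (adjusted p = 0.0948). In Het mice Ckb lost it also after rescaling to the same total (0.09, adjusted p = 0.123) and with quantile normalization. Ckb in Het minus WT under fluoxetine lost it also with the myelin score (adjusted p = 0.0548). The cause of these changes was not tested. Quantile normalization moved Ckb with fluoxetine in Het mice from 0.12 to 0.06.

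Of the tested results, 20 that were not called changed sign under 1 or more alternatives (values as reported from -0.15 to 0.29). The cause was not tested. Under quantile normalization, Ckb with fluoxetine in WT mice was 0.00, Ckmt1 in Het minus WT under fluoxetine -0.01 and Slc6a8 in the fluoxetine effect of Het minus WT -0.03. After rescaling to the same total, that Slc6a8 value was -0.01 and Gamt with fluoxetine in Het mice -0.02. Without the 16 libraries, Ckb was 0.02 with fluoxetine in WT males and 0.02 for male minus female, Ckmt1 was -0.08 with fluoxetine in Het males, 0.00 and -0.01 for Het minus WT under vehicle and fluoxetine, -0.01 for the interaction and 0.02 for sex, Gamt was -0.08 with fluoxetine in Het mice and -0.06 for Het minus WT under lithium, and the Slc6a8 interaction was -0.01. With the olfactory bulb score, Ckb and Ckmt1 with fluoxetine in WT males were 0.02 and -0.01. With the myelin score, Gamt with fluoxetine was -0.17 in Het females and -0.14 in Het mice, Gamt in Het minus WT under vehicle 0.05, Ckmt1 in Het minus WT under fluoxetine 0.00, and the interactions of Slc6a8 and Gamt -0.02 and -0.04. With the erythrocyte score, Ckb and Ckmt1 with fluoxetine in WT males were 0.02 and -0.03, Slc6a8 in Het males 0.00, Gamt in Het mice -0.04 and Ckmt1 in Het minus WT under lithium 0.01. With the leptomeningeal score, Ckb with fluoxetine in WT males was 0.00, Ckmt1 and Gatm in Het females -0.01 and 0.04, Gamt in Het mice -0.12, Ckmt1 in Het minus WT under fluoxetine -0.06, and the interactions of Slc6a8, Ckmt1 and Gatm -0.04, -0.04 and 0.03. When 1 library was left out, 10 of the tested results, which hold no lithium minus vehicle difference, changed sign in at least 1 case: with fluoxetine, Slc6a8 in Het males ran from -0.02 to 0.01, Ckb in WT males from -0.05 to 0.04, Ckmt1 in WT males from -0.06 to 0.07, Gatm in WT males from -0.18 to 0.02 and Gamt in Het mice from -0.04 to 0.06. For Het minus WT, Ckmt1 ran from -0.02 to 0.04 under fluoxetine and from -0.07 to 0.01 under lithium, and Gamt under lithium from -0.01 to 0.11. Some untested lithium differences also crossed 0, such as Ckmt1 in WT males from -0.05 to 0.11 and Gatm in Het males from -0.13 to 0.02. The Slc6a8 interaction ran from 0.00 to 0.02 and Ckmt1 by sex from -0.03 to 0.00. With edgeR and DESeq2, Ckb with fluoxetine in WT males was 0.00 and 0.00, and Gamt in Het mice -0.01 and 0.00.

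Same-numbered replicates did not deviate together (correlations from -0.276 to 0.222, and in 0 of 15 comparisons were all 5 over 0.1), so the numbers were not taken to pair samples, and the replicate block is an alternative only. The erythrocyte and leptomeningeal scores were added as covariates after seeing the data. The lowest value of Gamt, the least abundant of the 5, was 109 normalised reads. The part of read depth in its spread was not tested.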
